A study of Mus musculus with 9 samples.

Results

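This account covers 35 genes of the endoplasmic reticulum (ER) stress and protein folding machinery in mouse C2C12 skeletal muscle constructs. They were chosen by gene symbol, from a list of ER chaperones, disulfide isomerases, stress sensors, stress transcription factors, degradation factors and translocation factors. All 35 symbols were found among the 40879 symbols listed for each library. Of these, 34 entered the test across 11980 genes, and Derl3, a derlin of the degradation pathway, had 0 counts in all 9 libraries. C2C12 is an established line of mouse myoblasts, and it was grown here in a 3D construct before its RNA was sequenced from transcript 3' ends. The irradiated group holds 3 libraries of constructs labelled senescent, which received X-rays at 20 Gy. The cocultured group holds 3 libraries of constructs that were not irradiated but shared a culture with an irradiated one. The normal group holds 3 libraries of constructs that were neither irradiated nor cocultured. All groups had the same cell line and genotype, 2 days in growth medium with 10% fetal serum and 10 days in differentiation medium with equine serum. The series' design text gives a smaller number of replicates for the irradiated and the normal group than its sample labels, which were followed here. The labels call the replicates biological and do not say how their cultures were separated, so p-values measure the spread between these libraries. Because 1 line was used, the groups hold no variation between animals or donors.

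The ER folds secreted and membrane proteins, and skeletal muscle also uses the related sarcoplasmic reticulum to store calcium. When unfolded protein accumulates, it is sensed by the membrane proteins IRE1 (gene Ern1), PERK (Eif2ak3) and ATF6 (Atf6). IRE1 splices Xbp1 mRNA, PERK slows translation while favouring translation of Atf4 mRNA, and ATF6 is cut to release a transcription factor. The factors made in this way raise transcription of chaperones, degradation factors and, through ATF4, amino acid metabolism and the death-linked factor CHOP (Ddit3). Sequencing of 3' ends measures mRNA level and sees neither splicing of Xbp1, cleavage of ATF6 nor activity of the kinases.

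The deposited counts summed to between 6485655 and 8290468 per irradiated library, between 7506605 and 8035763 per cocultured library and between 4840993 and 6607557 per normal library. Levels below are normalised CPM, the share of a library's counts on the usual scale, with the library size multiplied by its TMM factor. A 3' end read stands for a transcript end, so these levels were not divided by transcript length. Libraries of 1 group differed. Mitochondrial genes took 21.6%, 10.9% and 13.4% of counts in irradiated replicates 1, 2 and 3, 10.8% to 12.5% in cocultured libraries, and 5.76%, 6.99% and 29.7% in normal replicates 1, 2 and 3. The predicted gene Gm26917 took 12%, 4.76% and 5.28% of counts in irradiated replicates 1, 2 and 3, 3.38% to 3.91% in cocultured libraries, and 23.9%, 27.4% and 9.47% in normal replicates 1, 2 and 3. Genes with at least 1 count numbered 11126, 8306 and 8654 in irradiated replicates 1, 2 and 3, 10002 to 11851 in cocultured libraries and 11329 to 14159 in normal libraries. All 14 skeletal muscle markers were detected, with summed levels of 6814 to 43357 CPM in irradiated, 3882 to 7550 CPM in cocultured and 4015 to 71521 CPM in normal libraries. A list of 21 adult sarcomere genes took 12.7% of counts in irradiated replicate 1 and 16.4% in normal replicate 3, against at most 2.75% in each other library. The 8 fibroblast markers, some of which myoblast lines also express, summed to 4900 to 7330 CPM in irradiated, 6182 to 10231 CPM in cocultured and 6122 to 11052 CPM in normal libraries. Endothelial, macrophage, adipocyte, smooth muscle and pericyte, B-lineage and Schwann cell lists each stayed at or below 178 CPM in irradiated, 169 CPM in cocultured and 456 CPM in normal libraries. The macrophage list was 1.29 to 22.8 CPM in irradiated, 25.8 to 169 CPM in cocultured and 107 to 456 CPM in normal libraries. Nearly all of it was Cd14 in the cocultured and normal libraries where it was highest, and the other 7 markers together were 0 to 17.9 CPM in irradiated, 0.113 to 9 CPM in cocultured and 8.01 to 47.6 CPM in normal libraries. The part of these library differences in the results below was not tested.

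The promoters of 31 of the 35 genes were present in the RefSeq promoter table, and the 250 bases before each annotated start were searched on both strands. The ER stress element, CCAAT and CCACG with 9 bases of any kind between them, is a sequence through which ATF6, with the factor NF-Y, is known to act. It was found before 9 of 31 of these genes (29%), against 35 of 27025 genes in the table (0.13%). Those 9 were Hspa5, Hsp90b1, Calr, Canx, Pdia6, Dnajc3, Creld2, Syvn1 and Derl3. The 35 genes were listed for their part in ER stress and folding, so this contrast describes the list and is no test. The shorter ER stress element II, ATTGG and CCACG with 1 base of any kind between them, stood before Herpud1 alone among the 31 genes (3.23%), against 10 of 27025 genes (0.037%). The composite element TGATGNAA, through which ATF4 is known to act with C/EBP partners, stood before Asns, Chac1 and Herpud1 (9.68% of the 31), against 1056 of 27025 genes (3.91%). The letters TGACGTGG, known as a site of XBP1 and ATF6, were in 0 of the 31 windows, against 163 of 27025 (0.603%). No 2 of these matches overlapped within a window of the genes listed here. Sequences of 6 promoters follow, because they belong to the 3 most abundant chaperones and to genes that carry the ATF4-type element. They are 250 bases long, written 5′ to 3′ on the gene's strand and credited to RefSeq on build GRCm38.p6, and the matched element is in capitals. The counts themselves were made on another build, so these coordinates apply to the promoters only. Hspa5 lies at chr2:34771840-34772089 on the plus strand, Hsp90b1 at chr10:86705445-86705694 on the minus strand and Calr at chr8:84846932-84847181 on the minus strand. Herpud1 lies at chr8:94386179-94386428 on the plus strand, Asns at chr6:7693210-7693459 on the minus strand and Chac1 at chr2:119350992-119351241 on the plus strand.
Hspa5: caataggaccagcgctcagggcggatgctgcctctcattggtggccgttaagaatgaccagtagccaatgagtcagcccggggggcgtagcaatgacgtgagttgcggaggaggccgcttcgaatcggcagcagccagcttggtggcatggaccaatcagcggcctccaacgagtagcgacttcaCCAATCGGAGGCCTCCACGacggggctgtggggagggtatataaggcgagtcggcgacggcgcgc
Hsp90b1: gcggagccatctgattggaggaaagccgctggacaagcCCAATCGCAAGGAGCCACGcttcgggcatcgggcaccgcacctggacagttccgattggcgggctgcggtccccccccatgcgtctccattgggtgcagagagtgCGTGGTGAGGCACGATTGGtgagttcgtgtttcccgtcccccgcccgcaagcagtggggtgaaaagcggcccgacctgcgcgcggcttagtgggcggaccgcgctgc
Calr: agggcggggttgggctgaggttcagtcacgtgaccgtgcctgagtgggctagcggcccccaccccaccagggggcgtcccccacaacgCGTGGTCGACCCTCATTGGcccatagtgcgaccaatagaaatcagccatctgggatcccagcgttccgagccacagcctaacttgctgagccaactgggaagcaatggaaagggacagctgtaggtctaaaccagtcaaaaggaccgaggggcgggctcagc
Herpud1: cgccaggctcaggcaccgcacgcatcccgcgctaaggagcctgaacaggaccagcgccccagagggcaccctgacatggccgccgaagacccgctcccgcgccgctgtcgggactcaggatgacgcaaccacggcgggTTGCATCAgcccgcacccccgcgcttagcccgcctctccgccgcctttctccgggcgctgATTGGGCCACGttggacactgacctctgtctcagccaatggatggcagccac
Asns: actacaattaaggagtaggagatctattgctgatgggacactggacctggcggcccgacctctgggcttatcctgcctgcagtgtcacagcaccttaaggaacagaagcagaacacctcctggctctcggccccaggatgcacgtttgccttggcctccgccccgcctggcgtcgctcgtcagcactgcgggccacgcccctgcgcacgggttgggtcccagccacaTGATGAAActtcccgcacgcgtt
Chac1: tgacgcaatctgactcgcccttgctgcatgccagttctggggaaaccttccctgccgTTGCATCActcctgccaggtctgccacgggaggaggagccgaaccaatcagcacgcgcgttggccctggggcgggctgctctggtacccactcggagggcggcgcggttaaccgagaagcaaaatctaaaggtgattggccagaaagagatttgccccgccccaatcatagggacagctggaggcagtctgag
In Hspa5 the element began 65 bases before the annotated start. Hsp90b1 held a copy on each strand, the farther of which began 212 bases before the start. The Asns composite element was the nearest of the 3 to its start, beginning 23 bases before it. A match of letters is a description and shows no binding in these cells.

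The 35 genes summed to 5993, 6709 and 7020 CPM in irradiated libraries, 5443, 6561 and 7756 CPM in cocultured libraries, and 9988, 6621 and 7208 CPM in normal libraries. Mean sums were 6574 ± 527 CPM in irradiated, 6586 ± 1157 CPM in cocultured and 7939 ± 1799 CPM in normal constructs (SD, n = 3 each). As a plain share of each library's counts, with no TMM factor, the normal mean was the lowest and not the highest, with 0.722 ± 0.25% in irradiated, 0.785 ± 0.131% in cocultured and 0.655 ± 0.286% in normal constructs (SD, n = 3 each). The groups overlapped on either scale, and normal replicate 1 was the highest of all 9 on both. Hspa5, Hsp90b1 and Calr alone took 48.7% to 52.6% of the counts of the 35 genes in irradiated libraries, 45.2% to 47.6% in cocultured libraries and 48.5% to 53.3% in normal libraries. At the other end, Trib3, Ern1, Eif2ak3, Asns, Chac1, Syvn1, Edem1, Dnajb9, Dnajb11 and Creld2 each had 0 counts in at least 1 library. A count of 0 allows a level of up to 0.282 to 0.639 CPM in an irradiated library, 0.31 to 0.339 CPM in a cocultured one and 0.616 to 0.821 CPM in a normal one, taken as 3 counts and covering counting error only. A set of 2963 genes averaged 20 to 50 CPM over the cocultured and normal libraries. Of these, 5.23%, 20.5% and 17.1% had 0 counts in irradiated replicates 1, 2 and 3. The share was 0.371% to 3.54% in cocultured and 0.0675% to 3.24% in normal libraries, which had set the choice. A 0 in irradiated replicate 2 or 3 was thus common among genes of that level elsewhere. In bulk RNA, fewer cells of a type and less RNA per cell cannot be told apart.

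**Figure D1:**
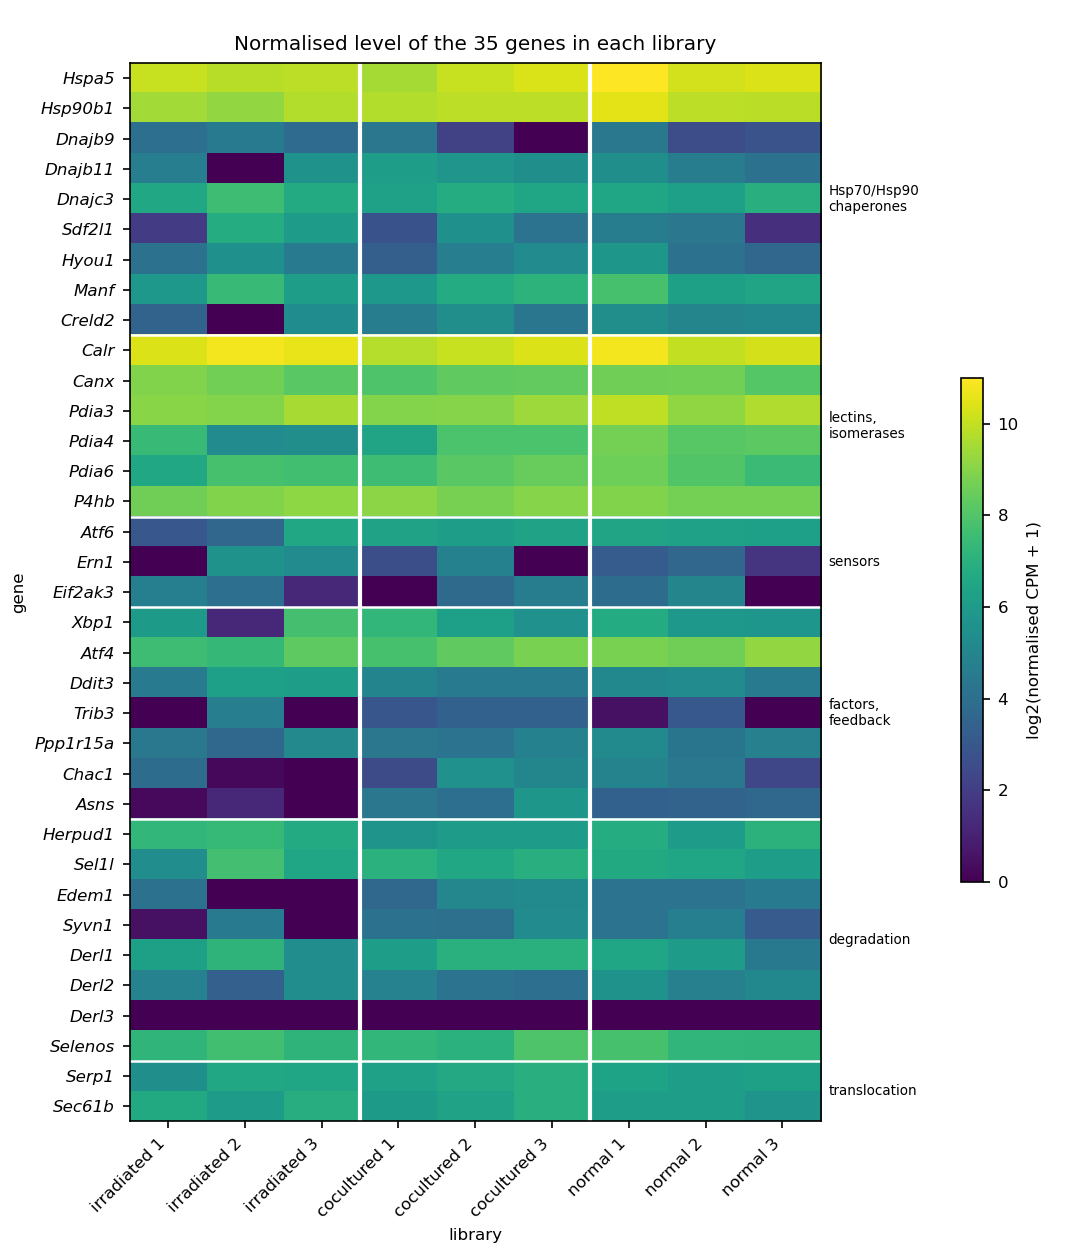
Levels of the 35 genes in each of the 9 libraries, with genes in rows grouped by role, libraries in columns and colour giving log2(normalised CPM + 1). Calr and Hspa5 are among the strongest rows in every library, Derl3 is at 0 throughout, and Asns is near 0 in the irradiated columns.

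None of the 34 tested genes passed the test in irradiated against normal constructs, where 7 of 11980 genes passed at an adjusted p under 0.05 (0.0584%). Genes were tested by quasi-likelihood in edgeR, with p-values adjusted over all tested genes by the Benjamini-Hochberg method, and the smallest adjusted p among the 34 was 0.334, for Pdia4. At an unadjusted p under 0.05, 0 were higher and 3 were lower (8.82% of 34), namely Pdia4, Atf4 and Asns, against 10.3% of all tested genes. Those shares are close, with 1.59% of all genes higher and 8.7% lower. In 6 of 34 genes every irradiated library lay below every normal one (17.6%), against 11.8% of all genes. These were Hspa5, Hsp90b1, Pdia4, Atf4, Asns and Edem1. That holds on the TMM-scaled levels. On plain shares of library counts the groups overlapped for Hspa5, Hsp90b1 and Atf4, and not for Pdia4, Asns and Edem1. The share of all genes without overlap on plain shares was not counted. In 0 genes did every irradiated library lie above every normal one, against 3.94% of all genes. Log2 fold changes were positive for 15 genes and negative for 19, with a median of -0.08, beside -0.21 over all genes tested. Among the 19 genes with a mean of at least 50 CPM the median was 0.02, beside -0.08 over the 3145 tested genes at that level. DESeq2 called 1 of the 34 genes, Pdia4 (2.94%), against 3.74% of all genes, and limma voom called 0, against 0.209% of all genes.

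Cocultured constructs showed 0 of 34 genes past the test against normal constructs, where 0 of 11980 genes passed (0%) in edgeR's quasi-likelihood test. At an unadjusted p under 0.05 there were also 0 of 34, against 4.11% of all genes (0.851% higher and 3.26% lower). DESeq2 and limma voom each called 0 of the 34, against 0.701% and 0% of all genes. Every cocultured library lay above every normal one for Asns and Dnajb11 (5.88% of 34), against 5.66% of all genes, and below every normal one for Pdia4 (2.94%), against 7.51%. That holds on the TMM-scaled levels. On plain shares of library counts these groups overlapped for Pdia4, and not for Asns and Dnajb11. The median log2 fold change was -0.03, beside -0.07 over all genes. In irradiated against cocultured constructs 0 of 34 genes passed, where 4 of 11980 did (0.0334%). At an unadjusted p under 0.05, Herpud1 was higher and Asns lower (5.88% of 34), against 9.58% of all genes (2.25% higher and 7.33% lower). Each of these was also without overlap between the groups (2.94% of 34 in each direction), against 3.9% of all genes that lay higher and 10.6% that lay lower without overlap. All genes without overlap came to 14.5% here, to 15.7% in irradiated against normal constructs and to 13.2% in cocultured against normal constructs. DESeq2 called Asns alone, as lower, in that comparison (2.94% of 34, against 3.96% of all genes), and limma voom called 0, against 0.876% of all genes. The 3 comparisons share libraries pairwise, so their values are given side by side and are not independent of each other.

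**Figure D2:**
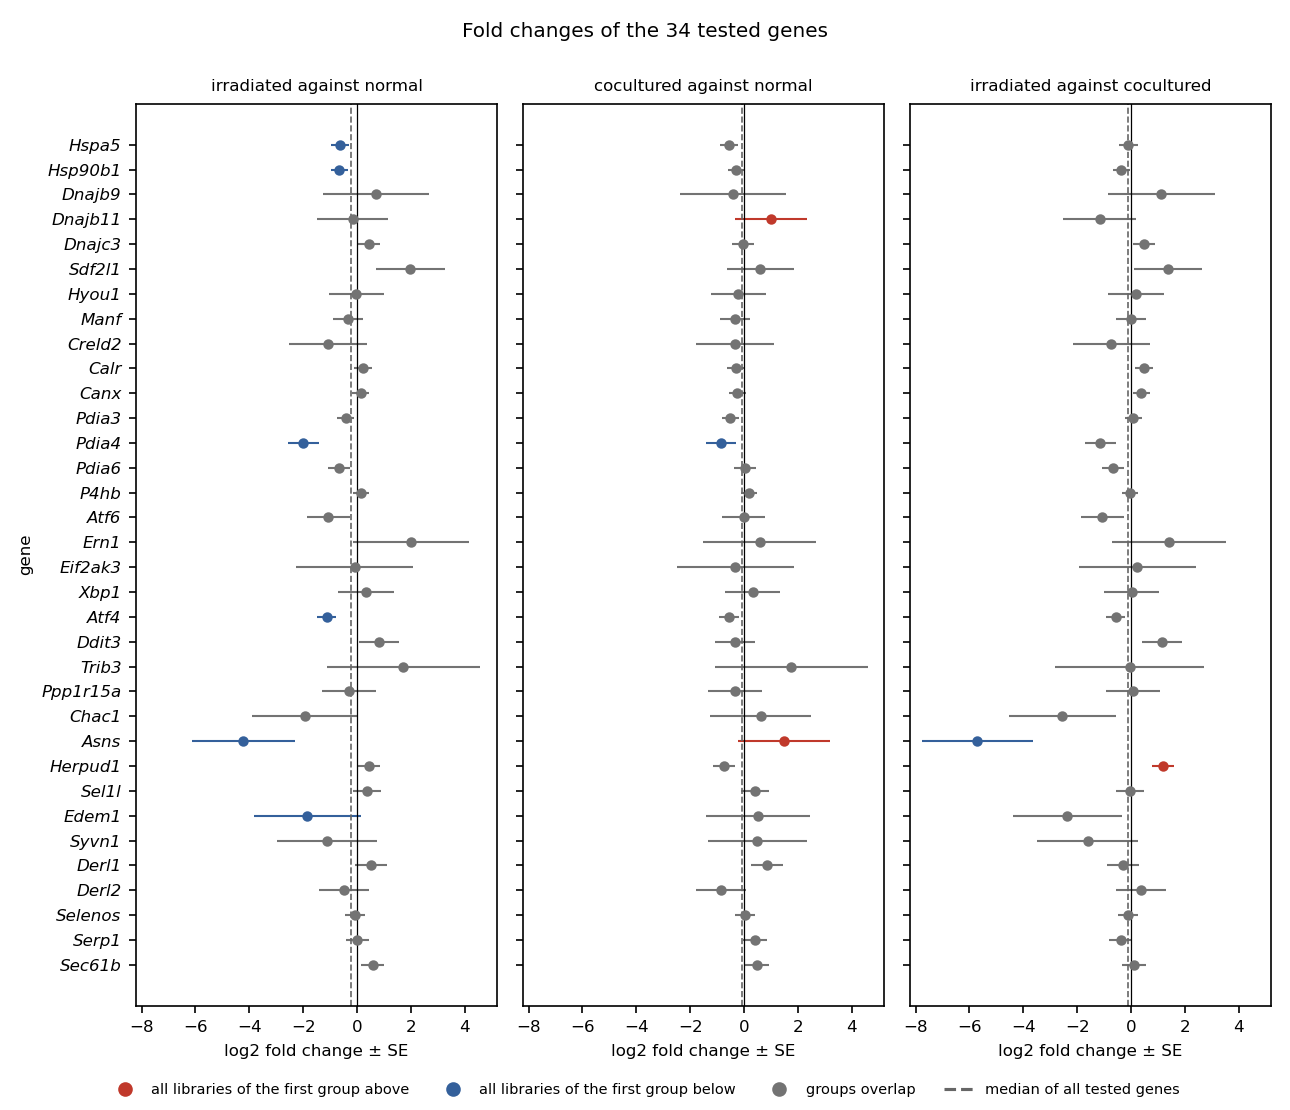
Log2 fold changes of the 34 tested genes in the 3 comparisons, with bars of 1 approximate SE from the quasi-likelihood test and genes grouped by role. Coloured points mark genes whose groups did not overlap, the dashed line is the median of all tested genes, bars are long for low genes such as Asns and Trib3, and 0 of 34 points passes an adjusted p under 0.05 in any panel.

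Among the luminal chaperones, the most abundant was Hspa5 (BiP), the ER member of the Hsp70 family, which binds unfolded chains and holds the sensors inactive. Hspa5 stood at 1079, 911 and 966 CPM in irradiated libraries, 732, 1086 and 1341 CPM in cocultured libraries, and 2028, 1220 and 1375 CPM in normal libraries. On the TMM-scaled levels all 3 irradiated libraries lay below all 3 normal ones, while the cocultured libraries overlapped both. The log2 fold change was -0.65 ± 0.34 (SE) in irradiated against normal constructs (adjusted p = 0.545, edgeR) and -0.55 ± 0.34 in cocultured against normal constructs (adjusted p = 1, edgeR). Hsp90b1 (GRP94), the ER member of the Hsp90 family, had 707, 592 and 857 CPM in irradiated libraries, 855, 950 and 957 CPM in cocultured libraries, and 1491, 964 and 938 CPM in normal libraries. Here too the irradiated libraries were under the normal ones, although irradiated replicate 3 and normal replicate 3 were close, and the log2 fold change was -0.65 ± 0.31 (adjusted p = 0.488, edgeR).

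Cofactors of these chaperones were 1 to 2 orders of magnitude less abundant and varied between libraries of 1 group. Sdf2l1, which forms complexes with BiP and its J-domain partners, had 2.77, 110 and 64.3 CPM in irradiated libraries, 5.79, 45.4 and 17.1 CPM in cocultured libraries, and 23.6, 19.3 and 1.92 CPM in normal libraries. Irradiated replicates 2 and 3 were the highest of the 9 and irradiated replicate 1 was near the lowest, and the log2 fold change against normal of 1.98 ± 1.29 did not pass (adjusted p = 0.776, edgeR). Manf, a secreted factor that is retained in the ER by BiP, had 57.9, 176 and 69.1 CPM in irradiated libraries, 56.6, 108 and 138 CPM in cocultured libraries, and 223, 75.4 and 85.6 CPM in normal libraries. Its groups overlapped in every comparison. Dnajb11 (ERdj3), a J-domain cochaperone of BiP, had 24.7, 0 and 49.9 CPM in irradiated libraries, 71.6, 52.1 and 43.4 CPM in cocultured libraries, and 43.1, 23.9 and 16.4 CPM in normal libraries. The cocultured libraries lay just above the normal ones, by 43.4 against 43.1 CPM at the nearest pair.
Dnajc3 (p58IPK), a J-domain cochaperone, averaged 129 ± 52.6 CPM in irradiated, 93 ± 17.5 CPM in cocultured and 95.4 ± 24 CPM in normal constructs (SD, n = 3 each). Dnajb9 (ERdj4), a further J-domain partner of BiP, ranged from 13.3 to 21.9 CPM in irradiated, 0 to 19.8 CPM in cocultured and 5 to 20.1 CPM in normal libraries. Hyou1 (GRP170), a nucleotide exchange factor for BiP, ranged from 16.6 to 44.5 CPM in irradiated, 9.11 to 38.9 CPM in cocultured and 11.5 to 56.3 CPM in normal libraries. Creld2, an ER-resident protein with isomerase-like function, averaged 16.9 ± 20.9 CPM in irradiated, 28.1 ± 12 CPM in cocultured and 35.6 ± 5.34 CPM in normal constructs (SD, n = 3 each). For each of these 4 genes the groups overlapped.

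The lectin chaperone Calr (calreticulin), which binds glycoproteins and calcium in the lumen, had the highest mean of the 35 genes in irradiated and cocultured constructs. It stood at 1366, 1768 and 1597 CPM in irradiated libraries, 876, 1090 and 1384 CPM in cocultured libraries, and 1802, 1027 and 1251 CPM in normal libraries. The irradiated libraries overlapped those of both other groups. Its log2 fold change was 0.21 ± 0.33 in irradiated against normal constructs (adjusted p = 1, edgeR), -0.29 ± 0.33 in cocultured against normal constructs (adjusted p = 1, edgeR) and 0.50 ± 0.33 in irradiated against cocultured constructs (adjusted p = 0.71, edgeR). Canx (calnexin), the membrane-bound counterpart of calreticulin, had 476, 405 and 291 CPM in irradiated libraries, 249, 320 and 330 CPM in cocultured libraries, and 390, 402 and 274 CPM in normal libraries. Its groups overlapped, with a log2 fold change of 0.38 ± 0.31 in irradiated against cocultured constructs (adjusted p = 0.865, edgeR).

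The ratio of Calr to Hspa5 levels was 1.27, 1.94 and 1.65 in irradiated libraries, 1.2, 1 and 1.03 in cocultured libraries, and 0.889, 0.842 and 0.909 in normal libraries. The 3 groups did not overlap on this ratio. The ratio of Hsp90b1 to Hspa5 was 0.655, 0.65 and 0.887 in irradiated libraries, 1.17, 0.875 and 0.713 in cocultured libraries, and 0.735, 0.79 and 0.682 in normal libraries, with overlap between all groups. The ratio of Ddit3 to Atf4 was 0.115, 0.467 and 0.23 in irradiated libraries, 0.135, 0.0688 and 0.053 in cocultured libraries, and 0.0776, 0.0983 and 0.0359 in normal libraries. All irradiated libraries lay above all normal ones on that ratio, and irradiated replicate 1 lay below cocultured replicate 1. These 3 ratios were chosen after the levels had been seen, and no test of them is used as support. Exact two-sided permutation tests of the 3 ratios in 2 comparisons gave p = 0.1 at the least, the smallest that 3 against 3 libraries allow, and 0.2 after Benjamini-Hochberg adjustment over the 6. Ratios were also formed for all 171 pairs of the 19 genes with a mean of at least 50 CPM. Of these, 22.2% had irradiated and normal libraries without overlap, 30.4% cocultured and normal libraries, and 21.1% irradiated and cocultured libraries. All 3 groups were apart in 2 pairs (1.17%). Ddit3 averaged 37.2 CPM over all libraries, so the Ddit3 to Atf4 ratio is outside these pairs and has no such share beside it. Each ratio is independent of library scaling, because its 2 genes are read in the same library.

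**Figure D3:**
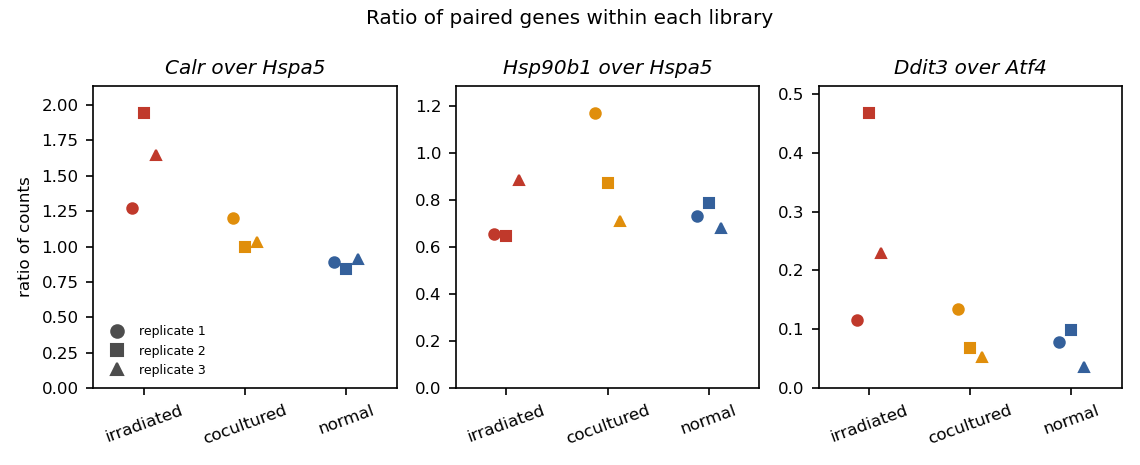
Ratios of normalised CPM between pairs of genes, 1 point per library, with groups along the horizontal axis. Calr over Hspa5 lies between 1.27 and 1.94 in the irradiated libraries, between 1 and 1.2 in the cocultured libraries and between 0.842 and 0.909 in the normal libraries.

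Of the disulfide isomerases, which form and rearrange disulfide bonds in the lumen, Pdia4 (ERp72) had the smallest p of the 34 genes in irradiated against normal constructs. Pdia4 stood at 172, 38.7 and 42.2 CPM in irradiated libraries, 84.6, 234 and 238 CPM in cocultured libraries, and 420, 283 and 303 CPM in normal libraries. On the TMM-scaled levels every irradiated and every cocultured library lay below every normal one. On plain shares of library counts the cocultured and normal libraries overlapped. Irradiated replicate 1 lay within the range of the cocultured libraries, and irradiated replicates 2 and 3 lay below it. Pdia4 averaged 84.4 ± 76.1 CPM in irradiated and 335 ± 74.1 CPM in normal constructs (SD, n = 3 each), with a log2 fold change of -1.99 ± 0.58 (unadjusted p = 0.00465, adjusted p = 0.334, edgeR). Without irradiated replicate 1 the log2 fold change was -3.05 (adjusted p = 0.0171, edgeR), which passes, and 1.11% of all genes tested then passed, against 0.0584% with all libraries. Against cocultured constructs the log2 fold change was -1.14 ± 0.57 (adjusted p = 0.496, edgeR).

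Pdia3 (ERp57), which acts with calreticulin and calnexin on glycoproteins, had 529, 497 and 753 CPM in irradiated libraries, 498, 511 and 665 CPM in cocultured libraries, and 976, 573 and 836 CPM in normal libraries. Normal replicates 1 and 3 were the highest of the 9 and normal replicate 2 lay among the others, with a log2 fold change of -0.51 ± 0.32 in cocultured against normal constructs (adjusted p = 1, edgeR). Pdia6 (P5) had 94.8, 220 and 204 CPM in irradiated libraries, 192, 290 and 351 CPM in cocultured libraries, and 375, 256 and 182 CPM in normal libraries. Its lowest value was that of irradiated replicate 1, and the groups overlapped (log2 fold change of -0.69 ± 0.41 in irradiated against cocultured constructs, adjusted p = 0.617, edgeR). P4hb, protein disulfide isomerase itself and a subunit of collagen prolyl hydroxylase, averaged 480 ± 86.1 CPM in irradiated, 494 ± 64.6 CPM in cocultured and 435 ± 39.3 CPM in normal constructs (SD, n = 3 each). The 4 isomerases thus differed in spread, with P4hb between 396 and 568 CPM over all 9 libraries and Pdia4 between 38.7 and 420 CPM.

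**Figure D4:**
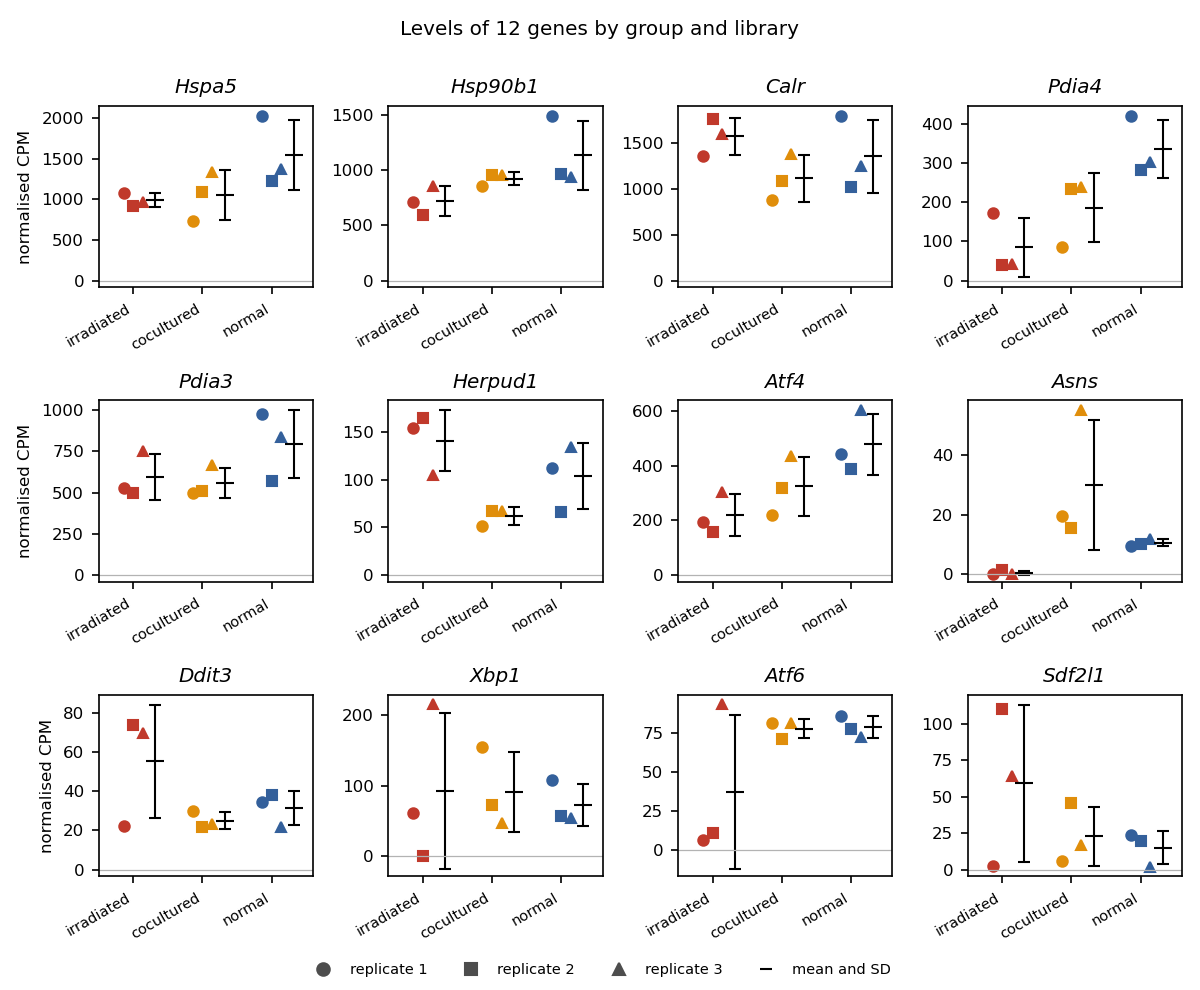
Normalised CPM of 12 genes, 1 point per library with the replicate number as the symbol, beside the mean and SD of each group (n = 3). Hspa5, Hsp90b1, Pdia4, Atf4 and Asns have all irradiated points below all normal points, and Atf6 has irradiated replicates 1 and 2 far below the other 7 libraries.

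Of the stress sensors, Atf6 was read at the highest level and Ern1 and Eif2ak3 were low. Atf6 had 6.81, 11.3 and 93.4 CPM in irradiated libraries, 81, 70.6 and 80.8 CPM in cocultured libraries, and 85.6, 77.5 and 72 CPM in normal libraries. Irradiated replicate 3 was the highest of the 9 while irradiated replicates 1 and 2 were the lowest, and the other 6 libraries lay within 70.6 to 85.6 CPM. The log2 fold change was -1.07 ± 0.80 in irradiated against normal constructs (adjusted p = 0.891, edgeR). With irradiated replicates 2 and 3 left out it was -3.52 (adjusted p = 0.0115, edgeR), a value that rests on the single remaining irradiated library and was computed after the data had been seen. Ern1, the IRE1 kinase and ribonuclease, had 0, 49.6 and 38.1 CPM in irradiated libraries, 5.25, 27.4 and 0 CPM in cocultured libraries, and 8.22, 11.4 and 2.19 CPM in normal libraries. Eif2ak3, the PERK kinase, had 26, 15.3 and 1.41 CPM in irradiated libraries, 0, 13 and 23.4 CPM in cocultured libraries, and 14, 31.4 and 0 CPM in normal libraries. Both kinase genes spanned a range from near 0 within a group, and their groups overlapped.

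Xbp1, the transcription factor downstream of IRE1, had 62, 1.32 and 216 CPM in irradiated libraries, 155, 72.6 and 46.8 CPM in cocultured libraries, and 108, 57.7 and 54.7 CPM in normal libraries. The irradiated group held both the lowest and the highest of the 9 values. Atf4, the transcription factor of the PERK arm, had 193, 159 and 304 CPM in irradiated libraries, 220, 317 and 437 CPM in cocultured libraries, and 442, 388 and 603 CPM in normal libraries. On the TMM-scaled levels all irradiated libraries lay below all normal ones, and the cocultured values were intermediate and overlapped both groups. Atf4 averaged 219 ± 76.1 CPM in irradiated and 478 ± 112 CPM in normal constructs (SD, n = 3 each), with a log2 fold change of -1.13 ± 0.37 (unadjusted p = 0.009, adjusted p = 0.419, edgeR). It was -0.56 ± 0.36 in cocultured against normal constructs (adjusted p = 1, edgeR) and -0.57 ± 0.36 in irradiated against cocultured constructs (adjusted p = 0.671, edgeR).

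Asns, asparagine synthetase and a known target of ATF4, was close to absent from irradiated libraries. Its counts were 1, 15 and 0 in irradiated libraries, 181, 149 and 486 in cocultured libraries, and 47, 45 and 44 in normal libraries. In levels these were 0.213, 1.41 and 0 CPM in irradiated, 19.4, 15.4 and 54.9 CPM in cocultured, and 9.65, 10.2 and 12 CPM in normal libraries. The 3 groups did not overlap, with irradiated lowest and cocultured highest. The log2 fold change was -4.22 ± 1.92 in irradiated against normal constructs (unadjusted p = 0.0464, adjusted p = 0.483, edgeR), -5.71 ± 2.06 in irradiated against cocultured constructs (unadjusted p = 0.0157, adjusted p = 0.493, edgeR) and 1.49 ± 1.71 in cocultured against normal constructs (adjusted p = 1, edgeR). Irradiated replicates 2 and 3 also had the fewest genes detected, as given above, and the part of that in the Asns values was not tested.

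Ddit3 (CHOP), a transcription factor induced by ATF4 and linked to cell death, had 22.1, 74 and 69.9 CPM in irradiated libraries, 29.8, 21.8 and 23.2 CPM in cocultured libraries, and 34.3, 38.2 and 21.6 CPM in normal libraries. Irradiated replicates 2 and 3 were the highest of the 9, and irradiated replicate 1 was among the lowest. The log2 fold change was 0.82 ± 0.75 in irradiated against normal constructs (adjusted p = 1, edgeR) and 1.15 ± 0.76 in irradiated against cocultured constructs (adjusted p = 0.695, edgeR), and with irradiated replicates 2 and 3 left out it was -0.50 and -0.18. Ppp1r15a (GADD34), the phosphatase subunit that reverses the translational block, had 20.4, 11.6 and 35.3 CPM in irradiated libraries, 19.4, 17.5 and 27.7 CPM in cocultured libraries, and 36.1, 18.6 and 27.1 CPM in normal libraries. Trib3, a pseudokinase induced by CHOP, had 0, 25.4 and 0 CPM in irradiated libraries, 6.75, 9.72 and 9.72 CPM in cocultured libraries, and 0.411, 7.27 and 0 CPM in normal libraries. The groups overlapped for Ppp1r15a and Trib3, and the Trib3 value of the irradiated group came from replicate 2 alone. Chac1, a glutathione-degrading enzyme and ATF4 target, had 13.8, 0.188 and 0 CPM in irradiated libraries, 4.71, 45.7 and 32 CPM in cocultured libraries, and 29.4, 20.2 and 4.1 CPM in normal libraries. Its irradiated replicates 2 and 3 were the lowest of the 9, but irradiated replicate 1 exceeded a library of each other group.

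Among the genes of ER-associated degradation, which returns misfolded proteins to the cytosol for breakdown, Herpud1 was the one that separated irradiated from cocultured constructs. Herpud1, a membrane scaffold of the retrotranslocation complex, had 154, 165 and 105 CPM in irradiated libraries, 51.4, 67.5 and 67 CPM in cocultured libraries, and 113, 65.9 and 134 CPM in normal libraries. Every irradiated library lay above every cocultured one, and the normal libraries overlapped both. The log2 fold change was 1.19 ± 0.41 in irradiated against cocultured constructs (unadjusted p = 0.0125, adjusted p = 0.493, edgeR), 0.44 ± 0.41 in irradiated against normal constructs (adjusted p = 1, edgeR) and -0.75 ± 0.41 in cocultured against normal constructs (adjusted p = 1, edgeR). Derl1, a derlin of the retrotranslocation channel, had 76.2, 141 and 40.8 CPM in irradiated libraries, 71.4, 125 and 124 CPM in cocultured libraries, and 89.8, 66.8 and 21.1 CPM in normal libraries. It overlapped between groups (log2 fold change of 0.85 ± 0.59 in cocultured against normal constructs, adjusted p = 1, edgeR). Edem1, a lectin that routes misfolded glycoproteins to degradation, had 16, 0 and 0 CPM in irradiated libraries, 11.9, 33.5 and 36.5 CPM in cocultured libraries, and 17, 17.3 and 22.4 CPM in normal libraries. Its irradiated libraries lay under the normal ones with irradiated replicate 1 just below the lowest of them, and the log2 fold change was -1.84 ± 1.99 (adjusted p = 1, edgeR).
Sel1l and Syvn1 (HRD1) form the ubiquitin ligase at the centre of this pathway. Sel1l ranged from 40.7 to 207 CPM in irradiated, 93.3 to 130 CPM in cocultured and 71.1 to 101 CPM in normal libraries. Syvn1 ranged from 0 to 22.8 CPM in irradiated, 15.7 to 38.5 CPM in cocultured and 7.94 to 25.5 CPM in normal libraries. Derl2, a paralogue of Derl1, averaged 26.3 ± 16 CPM in irradiated, 20.2 ± 6.81 CPM in cocultured and 36.9 ± 11.3 CPM in normal constructs (SD, n = 3 each). Selenos, a selenoprotein that links the channel to the extraction ATPase, averaged 164 ± 34.4 CPM in irradiated, 177 ± 63.4 CPM in cocultured and 172 ± 40.4 CPM in normal constructs (SD, n = 3 each). The groups overlapped for all 4 of these genes.

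Of the genes of translocation into the ER, Sec61b, a subunit of the Sec61 channel, had 102, 66.4 and 115 CPM in irradiated libraries, 63.3, 79.5 and 121 CPM in cocultured libraries, and 70.4, 68.4 and 51.4 CPM in normal libraries. Its highest values lay in irradiated and cocultured libraries, with overlap in both, and the log2 fold change was 0.58 ± 0.44 in irradiated against normal constructs (adjusted p = 0.918, edgeR) and 0.47 ± 0.44 in cocultured against normal constructs (adjusted p = 1, edgeR). Serp1, a factor that stabilises membrane proteins during translocation under stress, had 44.1, 95.8 and 88.2 CPM in irradiated libraries, 78.5, 97.9 and 123 CPM in cocultured libraries, and 83.4, 68.2 and 74.2 CPM in normal libraries. Irradiated replicate 1 was the lowest of the 9, and the log2 fold change in cocultured against normal constructs was 0.41 ± 0.44 (adjusted p = 1, edgeR).

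The spread within groups was counted gene by gene. The highest library exceeded the lowest by more than 3-fold for 19 of 34 genes in the irradiated group (55.9%), beside 67% of all tested genes. It did so for 9 of 34 in the cocultured group (26.5%), beside 50.6%, and for 9 of 34 in the normal group (26.5%), beside 52.6%. Among the 19 genes with a mean of at least 50 CPM, 6 exceeded that spread in the irradiated group (31.6%, beside 36.9% of all genes at that level). They were Atf6, Derl1, Manf, Pdia4, Sel1l and Xbp1. In the cocultured group it was Xbp1 alone and in the normal group Derl1 alone. The difference in spread between groups was not tested, and it did not run one way for every gene: Hspa5 had an SD of 85.4 CPM in irradiated, 306 CPM in cocultured and 429 CPM in normal constructs.

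The 8 tested genes with an ER stress element had 5 negative and 3 positive log2 fold changes in irradiated against normal constructs, with a median of -0.65, beside -0.21 over all genes. In cocultured against normal constructs 6 were negative and 2 positive with a median of -0.27, beside -0.07, and in irradiated against cocultured constructs 5 were negative and 3 positive with a median of -0.23, beside -0.10. Hspa5 and Hsp90b1 were among the negative ones and Calr among the positive ones in irradiated against normal constructs, although all 3 hold the element in the promoters printed above. Of the 3 genes with the ATF4-type element, Asns was near 0 in all 3 irradiated libraries, Chac1 was near 0 in irradiated replicates 2 and 3 only, and Herpud1 was at 105 CPM or more in all 3.

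Beyond the 35 genes, 148 other genes of the same pathways were counted in lists by role, of which 140 were tested. In edgeR's quasi-likelihood test 0 of 140 passed in each of the 3 comparisons. In irradiated against normal constructs 61 were positive and 79 negative with a median of -0.10, and 1 was higher and 8 lower at an unadjusted p under 0.05 (6.43%, beside 10.3% of all genes). Medians of the other 8 lists lay between -0.24 and 0.68, the highest being that of 5 tested cell death factors, in which Pmaip1 and Bcl2l11 were lower at that level. The list of PERK and ATF4 targets had 5 positive and 22 negative values among 27 tested genes and a median of -0.74, beside -0.21 over all genes, with 0 higher and 3 lower at an unadjusted p under 0.05 (11.1%, beside 8.7% of all genes). In irradiated against cocultured constructs that list had 4 positive and 23 negative values and a median of -0.74, beside -0.10 over all genes, with 3 lower at that level (11.1%, beside 7.33% of all genes). Other lists leaned lower in that comparison too, with smaller medians. The translocon, signal peptidase and glycosyltransferase genes had 5 positive and 20 negative values and a median of -0.21. The sensor regulators had 3 positive and 12 negative values and a median of -0.17. In irradiated against normal constructs these lists were more even, with 10 positive and 15 negative and with 7 positive and 8 negative values. In cocultured against normal constructs the list of PERK and ATF4 targets had 14 positive and 13 negative values. Its median was 0.04, beside -0.07, with 0 genes at an unadjusted p under 0.05 against 4.11% of all genes. These counts describe the list, and no test was made of it as a whole.

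Within that list Ddit4 (REDD1), an inhibitor of mTORC1 signalling, averaged 68.2 ± 55.7 CPM in irradiated and 192 ± 98.2 CPM in normal constructs (SD, n = 3 each), with a log2 fold change of -1.49 ± 0.61 (adjusted p = 0.483, edgeR), and it was -0.85 ± 0.60 in cocultured against normal constructs (adjusted p = 1, edgeR). Eif4ebp1, a repressor of cap-dependent translation, averaged 41 ± 7.2 CPM in irradiated and 132 ± 38.3 CPM in cocultured constructs (SD, n = 3 each), without overlap and with a log2 fold change of -1.68 ± 0.54 (adjusted p = 0.493, edgeR). Eif2s1, the initiation factor subunit that PERK phosphorylates, averaged 14.6 ± 7.48 CPM in irradiated and 52.9 ± 13.5 CPM in normal constructs (SD, n = 3 each), with a log2 fold change of -1.85 ± 0.70 (adjusted p = 0.483, edgeR), and it was -2.15 ± 0.71 against cocultured constructs (adjusted p = 0.493, edgeR). Edem3, a mannosidase that acts beside Edem1, averaged 12.6 ± 8.41 CPM in irradiated and 51.4 ± 20.3 CPM in normal constructs (SD, n = 3 each), with a log2 fold change of -2.03 ± 0.79 (adjusted p = 0.483, edgeR), and it was -1.91 ± 0.78 against cocultured constructs (adjusted p = 0.493, edgeR). On the TMM-scaled levels Eif2s1 and Edem3 had all irradiated libraries below all normal ones, and Ddit4 overlapped. On plain shares of library counts Eif2s1 overlapped as well, and Edem3 did not. On the other side Prdx4, an ER peroxiredoxin that drives oxidative folding, averaged 228 ± 152 CPM in irradiated and 96.4 ± 32 CPM in normal constructs (SD, n = 3 each), with a log2 fold change of 1.24 ± 0.57 (adjusted p = 0.483, edgeR). Its groups overlapped, with 271, 59.2 and 354 CPM in irradiated libraries and 59.6, 113 and 117 CPM in normal libraries. Ubxn4 (erasin), a partner of the extraction ATPase, averaged 364 ± 62 CPM in irradiated and 237 ± 38.9 CPM in normal constructs (SD, n = 3 each) without overlap, with a log2 fold change of 0.62 ± 0.31 (adjusted p = 0.511, edgeR). None of these genes passed the test. Of the 140 tested pathway genes, 9.29% lay lower without overlap in irradiated against normal constructs (all genes 11.8%) and 2.14% higher (all genes 3.94%). In irradiated against cocultured constructs 9.29% lay lower without overlap, against 10.6% of all genes.

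**Figure D5:**
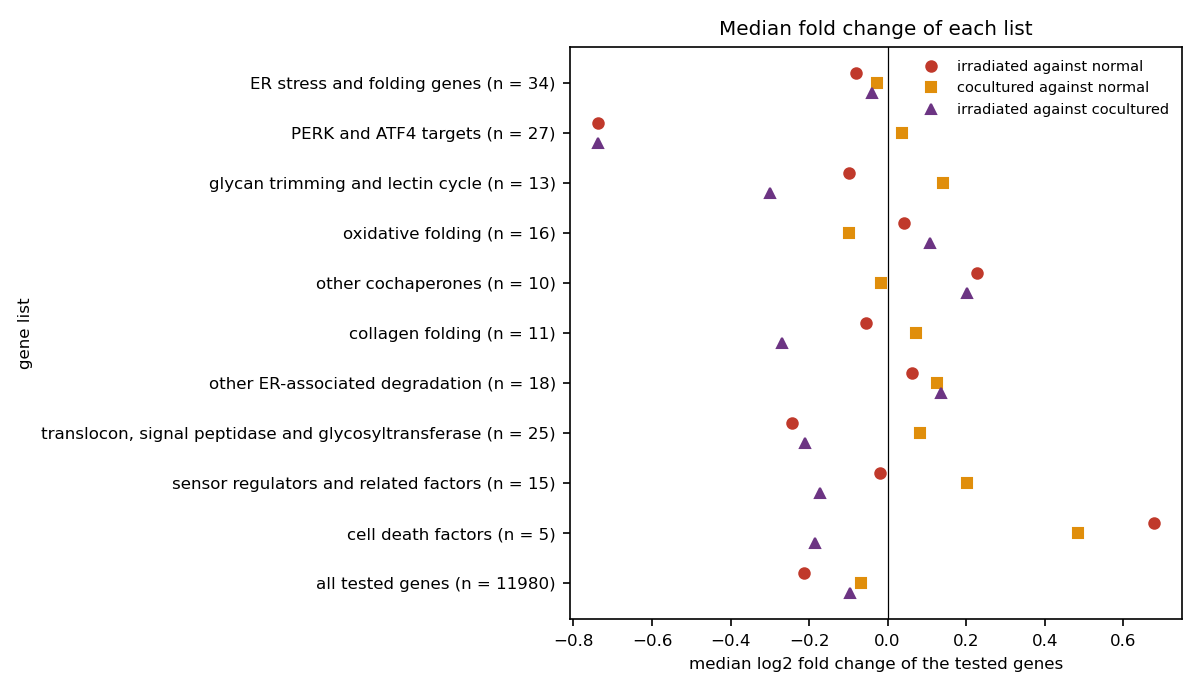
Median log2 fold change of each list by role in the 3 comparisons, beside the median of all tested genes. The PERK and ATF4 target list has a median of -0.74 in irradiated against normal and in irradiated against cocultured constructs, and 0.04 in cocultured against normal constructs.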

How the data were processed

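RNA of 9 constructs was sequenced from transcript 3' ends. The authors deposited 1 file of raw read counts per gene symbol for each library, and the tools named per the submitters' processing notes are STAR, HTSeq and FastQC, with the builds GRCm39 and mm39. The sources used here do not give versions, annotation, strand setting or duplicate handling. PCR copies may therefore be counted, and antisense or overlapping genes cannot be told apart. Counts were tested with edgeR 4.0.16 in R 4.3.3 (default filter on low counts, TMM factors, quasi-likelihood fit, two-sided) in 1 fit of all 9 libraries with group as the term, and p-values were adjusted by Benjamini-Hochberg over 11980 genes at a threshold of 0.05. SE was taken as the size of the log2 fold change over the square root of F and is approximate. With a common dispersion whose square root was 1.32, the depth of 4840993 to 8290468 counts limits the precision less than the spread between libraries. Levels in every library are given for a panel of members, and log2 fold changes for the members and pathway genes with the smallest p per direction in a comparison whose mean reached 10 CPM and for some of the panel. The 35 genes, the lists and the naming rule were chosen with earlier results of these data known. Promoters were read from the RefSeq table of GRCm38.p6, and no sequence was read by the coordinates of the counts. Alternatives were DESeq2 1.42.0, limma 3.58.1 with voom, other scaling factors, other filters, a replicate block, the compared libraries alone and leaving libraries out. The fit was tested on simulated counts. No replicate pair was a duplicate by a chi-square comparison of counts.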

Additional observations from a re-analysis of the deposited data

How the results depend on the processing

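In cocultured against normal constructs 0 of the 34 tested members was called under every alternative run (19 were tested under the filter at 50 CPM). All genes called there came to 0.701% with DESeq2 and 0.279% without a filter on low counts. Elsewhere they came to at most 0.0078%. In irradiated against normal constructs 0 were called in the edgeR fit reported, and 1 with DESeq2 (Pdia4, lower, adjusted p 0.0383, where 448 of 11980 genes or 3.74% were called), 1 without a filter on low counts (Pdia4, adjusted p 0.00495, 0.698% of genes called) and 1 with irradiated replicates 2 and 3 both left out (Atf6, adjusted p 0.0115, 1.17% of genes called). Leaving out 1 library at a time gave 0 to 1 called, the 1 being Pdia4 without irradiated replicate 1. Of all genes 1.11% were called in that run, and 0.0452% to 0.125% without any other library. In irradiated against cocultured constructs 1 was called with DESeq2 (Asns, adjusted p 0.00332, 3.96% of genes called). Without any 1 library 0 were called, against 0.00753% to 0.73% of all genes. With irradiated replicates 2 and 3 both left out, Atf6 had a log2 fold change of -3.51 in that comparison. That last alternative was chosen after seeing the data, and it assumes that the lone irradiated library varies like those of the other groups. There Sdf2l1 and Ddit3 had log2 fold changes of -2.43 and -0.50 against normal, and Ddit3 -0.18 against cocultured, all of the opposite sign. When libraries were scaled by their totals alone, the median log2 fold change of all genes moved to 0.14 in irradiated against normal, 0.48 in cocultured against normal and -0.28 in irradiated against cocultured constructs. In cocultured against normal constructs Calr then had 0.24, Pdia3 0.047, Atf4 0.055 and Plod1 0.040, each of the opposite sign to the reported value and each below the shifted median; the cause of the other changes was not tested. Of 982 recomputed log2 fold changes of named genes, 969 kept direction and side of the threshold, 7 reversed and 6 passed where the reported value had not. Without 1 library at a time the log2 fold change of Pdia4 in irradiated against normal constructs ranged from -3.05 to -1.65, that of Atf6 from -3.11 to -0.58 and that of Asns from -6.59 to -3.64. Other values that did not pass moved as well, from -10.1 to -1.25 for Edem1, 0.047 to 0.50 for Calr, 0.20 to 0.67 for Herpud1, -0.79 to -0.37 for Hspa5, -0.80 to -0.38 for Hsp90b1 and 0.77 to 1.70 for Prdx4 in that comparison. With the replicate block 0 members were called in each comparison, and 23, 0 and 12 of all genes against 7, 0 and 4 without it, in the order irradiated against normal, cocultured against normal, irradiated against cocultured. Libraries with the same number did not deviate together (correlations of -0.086 to 0.052). A library correlated best with its own number in 7 of 18 library and group pairs. The labels do not say whether the numbers pair the samples, and with so few libraries these values cannot settle it. Genes under 50 CPM gave no value under the filter at that level.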

Other observations

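Further pathway genes with the smallest p per direction in a comparison did not pass the test of edgeR, and only some were without overlap between groups. In irradiated against cocultured constructs 2.86% of the 140 tested pathway genes lay higher without overlap, against 3.9% of all genes. In cocultured against normal constructs 5.71% of them did, against 5.66% of all genes. Vcp, the ATPase that extracts misfolded proteins from the ER membrane, averaged 541 ± 80 CPM in irradiated and 368 ± 13.9 CPM in cocultured constructs (SD, n = 3 each), without overlap, and its log2 fold change was 0.56 ± 0.29 (adjusted p = 0.51, edgeR). Dnajc1, an ER membrane J-domain protein, averaged 87.9 ± 38.6 CPM in irradiated and 44.4 ± 7.66 CPM in cocultured constructs (SD, n = 3 each), also without overlap (log2 fold change 0.99 ± 0.54, adjusted p = 0.549, edgeR). For Vcp and Dnajc1 that holds on the TMM-scaled levels, and on plain shares of library counts both overlapped. Stt3b, a catalytic subunit of the oligosaccharyltransferase, averaged 111 ± 87.1 CPM in irradiated, 52.5 ± 12.9 CPM in cocultured and 49.2 ± 10.2 CPM in normal constructs (SD, n = 3 each), with overlap, and its log2 fold changes in irradiated constructs were 1.17 ± 0.65 against normal (adjusted p = 0.606, edgeR) and 1.08 ± 0.65 against cocultured (adjusted p = 0.622, edgeR). Ppp1r15b (CReP), the constitutive counterpart of GADD34, averaged 80.9 ± 11.3 CPM in cocultured and 51.7 ± 13.9 CPM in normal constructs (SD, n = 3 each), without overlap (log2 fold change 0.65 ± 0.46, adjusted p = 1, edgeR). Casp12, a caspase of the ER membrane in mouse, averaged 110 ± 33.8 CPM in cocultured and 60.2 ± 48.9 CPM in normal constructs, and Plod2, a collagen lysyl hydroxylase, averaged 182 ± 66.1 CPM in cocultured and 128 ± 28.6 CPM in normal constructs (SD, n = 3 each), both with overlap and with log2 fold changes of 0.87 ± 0.60 for Casp12 and 0.50 ± 0.38 for Plod2 (adjusted p = 1 for each, edgeR). Rpn1, a subunit of the oligosaccharyltransferase, averaged 154.5 ± 18.6 CPM in cocultured and 218 ± 87.6 CPM in normal constructs, and Plod1, a further lysyl hydroxylase, 75.9 ± 23.3 CPM in cocultured and 117 ± 44.1 CPM in normal constructs (SD, n = 3 each), likewise with overlap and with log2 fold changes of -0.49 ± 0.36 for Rpn1 and -0.62 ± 0.45 for Plod1 (adjusted p = 1 for each, edgeR).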
